A study of Mus musculus with 36 samples.

Results

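The genes considered here encode contractile isoforms of developing and cardiac muscle: Myh3, Myh8, Actc1, Acta1, Tnnt2 and Myl4. They were looked up by gene symbol in the annotation of the array, and 2 of the 6 were found, Acta1 and Tnnt2, each with 1 oligonucleotide out of the 8129 on the array. Myh3, Myh8, Actc1 and Myl4 were not analysed here. Since 1370 oligonucleotides have no gene symbol, others may be present without a name. No developmental myosin heavy or light chain was thus analysed here, and every result below rests on 1 actin and 1 troponin T.

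The arrays profiled quadriceps muscle of 2 mouse models of limb-girdle muscular dystrophy, beta-sarcoglycan-deficient mice (BSG) and gamma-sarcoglycan-deficient mice (GSG). The ages were 1 and 2.5 weeks, every 2 weeks from 4 to 14 weeks, and 20 weeks, with 2 mice for each age and strain and 36 mice in all. Per strain, 18 dual-channel arrays formed 2 closed loops of 9 arrays, in which each mouse was compared with the mouse of the next age and the oldest again with the youngest. Littermates were used for most ages, and the labels give the strains by name, with no allele, sex or treatment. WT mice were not analysed here, so a change with age in a deficient muscle cannot be told apart from the change of healthy muscle over the same weeks. The RNA is that of a muscle with all its cells, in which fewer fibres of a type and less RNA per fibre cannot be told apart.

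A sarcomere is built of myosin thick filaments and of thin filaments made of actin, tropomyosin and the troponin complex. Skeletal muscle switches the isoforms of most of these proteins as it matures: embryonic and perinatal myosin heavy chains (Myh3, Myh8), the embryonic and atrial myosin light chain (Myl4), cardiac alpha-actin (Actc1) and cardiac troponin T (Tnnt2) give way to adult isoforms, and they return for a time in regenerating fibres. Acta1 encodes skeletal alpha-actin, the main actin of the adult skeletal sarcomere. Of the measured genes only Tnnt2 is therefore an isoform of immature skeletal or cardiac muscle.

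The values were log2 ratios of the Cy5 over the Cy3 channel, in which Cy5 held the older mouse except on the array that closed each loop. The scale and the direction are not stated with the data and were taken from the range of the values and from the labels, so the direction is likely. With it, Dlk1, an imprinted gene of growing tissue, was lower at 20 weeks than at 1 week by -3.05 in BSG and -3.54 in GSG (log2; limma, adjusted p = 1.68e-08 and 6.25e-10). Ratios carry no absolute level, so neither gene was compared with the other or between strains in level, and the tissue was not checked by the level of its markers. The 2 spots of an oligonucleotide correlated across the array with a median r of 0.549, and on 9 of 36 arrays r was below 0.3. Loop 1 of BSG and loop 1 of GSG had the lower medians, 0.320 and 0.367, against 0.585 and 0.645 in loop 2.

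Acta1 passed no test of a change with age in BSG. In loop 1, the BSG mice at 2.5, 4, 6 and 8 weeks had log2 ratios to the 1-week mouse of 0.18, 0.32, -0.11 and 0.30. The mice of that loop at 10, 12, 14 and 20 weeks had 0.05, -0.09, 0.33 and 0.13. These 8 values stayed within a narrow band on both sides of the 1-week level. In loop 2 the corresponding values were -0.01, -0.04, 0.37 and -0.38, followed by -0.67, -0.50, 0.12 and 0.48. The lowest mice of this loop were those of 8, 10 and 12 weeks, and the highest was the mouse of 20 weeks.

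The fitted Acta1 ratio at 20 weeks was 0.30 ± 0.39 in BSG (log2 ± SE, 95% interval -0.49 to 1.10, limma, adjusted p = 0.932). At 10 weeks, the lowest age, it was -0.31 ± 0.61. The mean of the 8 later ages was 0.03 ± 0.40 against 1 week (95% interval -0.79 to 0.85). Ordered from low to high, the ages were 10, 12, 8, 1, 2.5, 6, 4, 14 and 20 weeks. The largest step between neighbours in that order was 0.25, below the smallest standard error between a pair of ages, 0.39.

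In GSG, the 2 loops gave different Acta1 profiles. All 8 later mice of loop 1 lay above the 1-week mouse, with log2 ratios of 0.60, 0.29, 0.83 and 0.71 at 2.5, 4, 6 and 8 weeks. At 10, 12, 14 and 20 weeks they were at 1.14, 1.12, 0.86 and 0.62. The mice of loop 2 were at -0.02, 0.05, -0.35 and -0.56 up to 8 weeks and at -0.70, 0.08, 0.14 and 0.12 from 10 to 20 weeks. In these ratios the loop 1 mouse was above the loop 2 mouse at all 8 ages, by up to 1.84 at 10 weeks. Since the 8 values of a loop share its 1-week mouse, they are not 8 independent comparisons.

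The fitted Acta1 ratio in GSG at 20 weeks was 0.37 ± 0.39 (95% interval -0.42 to 1.17, limma, adjusted p = 0.790). The mean of the 8 later ages was 0.31 ± 0.40 against 1 week (95% interval -0.51 to 1.12, limma, adjusted p = 0.948). It was -0.16 without loop 1 and 0.77 without loop 2, and -0.90 with the 9 arrays of discordant duplicate spots left out (limma, adjusted p = 0.515). Without those arrays both loops of GSG were open, as each lost its array of 4 over 2.5 weeks. An error shared by all arrays would not cancel there. With all arrays, the fitted values were lowest at 1 week and highest at 12 weeks, 0.60 ± 0.58. No step between neighbouring levels exceeded 0.13. The gap between the mice of an age was taken between their ratios, each to the 1-week mouse of its own loop. It therefore also holds any difference between those 1-week mice. The mean gap was 0.93, larger than for all but 4.77% of the oligonucleotides, whose median gap in GSG was 0.35. In BSG the mean gap for Acta1 was 0.42, and 39.2% of the oligonucleotides had a larger one.

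Tnnt2 was the gene with the largest excursion, and it was seen in 1 of the BSG loops. In loop 1 the log2 ratios to 1 week were 0.00 at 2.5 weeks, 0.61 at 4 weeks, 1.20 at 6 weeks and 1.57 at 8 weeks. They were highest at 10 and 12 weeks, 1.93 and 1.90, stood at 1.49 at 14 weeks and were at -0.09 at 20 weeks. In loop 2 the values were -0.22, 0.07, -0.56 and -0.28 up to 8 weeks and -0.08, 0.12, -0.32 and -0.06 from 10 to 20 weeks. The mice of loop 2 thus stayed near or below the 1-week level at the ages at which those of loop 1 were highest. At 20 weeks both BSG mice were within 0.1 of it.

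**Figure D1:**
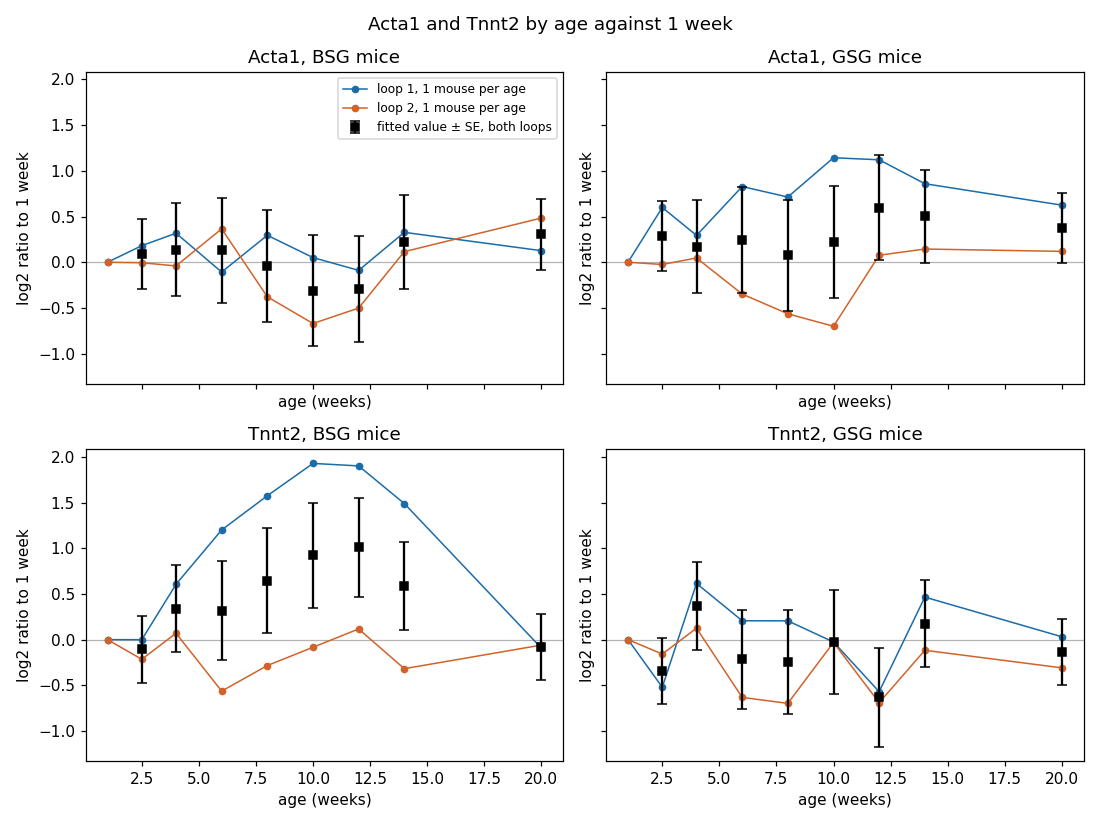
Log2 ratio to the 1-week mouse of the same loop (vertical axis) against age in weeks (horizontal axis) for Acta1 and Tnnt2 in BSG and GSG. Coloured points are single mice joined by loop, and black squares are the values fitted to both loops with their standard errors. Tnnt2 in BSG reaches 1.93 in loop 1 and stays between -0.56 and 0.12 in loop 2.

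The fitted Tnnt2 ratio in BSG was 1.01 ± 0.54 at 12 weeks (95% interval -0.11 to 2.13, limma, adjusted p = 0.999), its highest age. At 20 weeks it was -0.08 ± 0.36 (95% interval -0.82 to 0.67, limma, adjusted p = 0.988). The mean of the 8 later ages was 0.45 ± 0.37 (95% interval -0.31 to 1.22, limma, adjusted p = 0.979). From 2.5 to 8 weeks the fitted change was 0.75 ± 0.54, and from 8 to 20 weeks it was -0.72 ± 0.57, neither past the threshold. The order from low to high was 2.5, 20, 1, 6, 4, 14, 8, 10 and 12 weeks, with a largest step of 0.32 against a smallest standard error of 0.36. The mean gap between the BSG mice of an age, as ratios to their own 1-week mice, was 1.25 for Tnnt2. It reached 2.01 at 10 weeks, and 4.13% of the oligonucleotides had a larger mean gap.

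The high Tnnt2 values of loop 1 of BSG were present on both spots but differed in size. From the first spots alone the ratios were 2.52 at 8 weeks, 2.79 at 10 weeks, 2.14 at 12 weeks and 1.55 at 14 weeks. From the second spots alone they were 0.63, 1.07, 1.67 and 1.43 at the same ages. The spots were most apart on the array of 12 over 10 weeks, -0.85 on the first spot and 1.03 on the second. On that array the duplicate spots of all oligonucleotides correlated with r = -0.10, the lowest of the 36 arrays. The arrays of 8 over 6, 10 over 8 and 14 over 12 weeks of this loop were also below an r of 0.3, and with these 4 arrays left out the mice of 8, 10 and 12 weeks of loop 1 are no longer joined to the 1-week mouse. The drop from 14 to 20 weeks was read on the array of 20 over 14 weeks, where the spots were at -1.75 and -1.18 in loop 1. The same array of loop 2 stood at 0.62 and 0.58. The mouse of 20 weeks was joined directly to the 1-week mouse by the array of 1 over 20 weeks. On that array of loop 1 the spots lay on opposite sides of 0, at -0.20 and 0.62.

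In GSG the Tnnt2 values of the loops were closer to each other. Loop 1 gave -0.52, 0.61, 0.21 and 0.21 at 2.5, 4, 6 and 8 weeks and -0.03, -0.57, 0.47 and 0.03 at 10, 12, 14 and 20 weeks. Loop 2 gave -0.16, 0.13, -0.63 and -0.70, followed by -0.03, -0.69, -0.12 and -0.31. Both mice were above 1 week at 4 weeks and both were below it at 2.5 and 12 weeks. The mean gap between mice, as ratios to their own 1-week mice, was 0.46, and 31.0% of the oligonucleotides had a larger one.

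The fitted Tnnt2 ratio in GSG was -0.14 ± 0.36 at 20 weeks (95% interval -0.88 to 0.61, limma, adjusted p = 0.952). It was highest at 4 weeks, 0.37 ± 0.48, and lowest at 12 weeks, -0.63 ± 0.54. The mean of the 8 later ages was -0.13 ± 0.37 (95% interval -0.90 to 0.63), and -1.24 with the 9 arrays of discordant duplicate spots left out (limma, adjusted p = 0.465). In the fit without those arrays both loops of GSG were open, so an error shared by all arrays would not cancel. The F test over all 8 later ages, which asks for any deviation from the 1-week level, gave Tnnt2 an adjusted p of 0.843 in GSG and 1.00 in BSG (limma).

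Of these 2 genes, 0 were called at an adjusted p under 0.05 in any comparison of ages (limma, Benjamini-Hochberg over 8129 oligonucleotides), and 0 had an unadjusted p under 0.05 in any contrast of ages. Beside that count, few oligonucleotides were called at all in most of these comparisons. At 20 against 1 week the share was 1.28% in BSG and 3.74% in GSG. At 2.5 against 1 week it was 0.0123% in BSG and 0.0984% in GSG. For the mean of the later ages it was 0.0738% and 0.652%, and for the F test 0.0984% and 0.59%. For 8 against 2.5 weeks and 20 against 8 weeks it was 0% in both strains. The mice of 2.5 and 20 weeks each shared an array with the mouse of 1 week. Those of 8 weeks were joined to 2.5 and 20 weeks only through other ages. Read against these shares, the count of 0 shows nothing particular to Acta1 and Tnnt2.

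The precision sets how large a change could have gone uncalled. At 20 weeks, an Acta1 change smaller than 1.52 in BSG or 1.34 in GSG (log2) would not have reached the p at which oligonucleotides were called. For Tnnt2 these limits were 1.42 and 1.26. The 95% intervals at 20 weeks allow an Acta1 level between 0.712 and 2.14 times that of 1 week in BSG and between 0.746 and 2.24 times in GSG. For Tnnt2 they allow 0.566 to 1.59 times and 0.542 to 1.52 times. These intervals take the arrays as independent, although neighbouring arrays share a mouse. The residual SD around the fitted ages was 0.625 for Acta1 and 0.585 for Tnnt2, against a median of 0.309 over all oligonucleotides, and 5.66% and 8.09% of them had a larger one.

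The question of the strain comparison was whether the profiles over age differ between loss of beta- and of gamma-sarcoglycan. For the change from 1 to 20 weeks, BSG minus GSG was -0.07 ± 0.55 for Acta1 (95% interval -1.19 to 1.06) and 0.06 ± 0.51 for Tnnt2 (95% interval -0.99 to 1.12). For the mean of the later ages it was -0.28 ± 0.56 for Acta1 and 0.59 ± 0.52 for Tnnt2. Of the 2 genes, 0 were called, as were 0% of all oligonucleotides. The temporal Hotelling test, which compares quadratic curves through the ages, gave an adjusted p of 1.00 for both genes, as did the non-temporal test on the 8 ages. As written here, both Hotelling tests called 0% of the oligonucleotides, so they do not separate these genes from any other. The study lists genes that passed its own temporal test of BSG against GSG, Matn2, Plagl1 and Postn among them. None of these was called here, and why the results differ was not tested.

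At 12 weeks the mice of the strains lay on opposite sides of the 1-week level for Tnnt2, at 1.90 and 0.12 in BSG and at -0.57 and -0.69 in GSG. The difference was 1.64 ± 0.77 (95% interval 0.06 to 3.22, limma, adjusted p = 1.00). Of 70 tests of these genes it was the only 1 with an unadjusted p under 0.05, and the age was singled out after its values were seen. Without loop 1 of BSG the difference was 0.75 ± 0.95. At the same age Acta1 lay on the other side, at -0.09 and -0.50 in BSG and at 1.12 and 0.08 in GSG, with a difference of -0.89 ± 0.82 (limma, adjusted p = 1.00).

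Both oligonucleotides had ratios above 0 on most arrays. Acta1 was above 0 on 31 of 36 arrays and Tnnt2 on 26, where the median oligonucleotide was above 0 on 18. The arrays that closed the loops had the 1-week mouse in Cy5. On them Acta1 was at 0.36 and -0.21 in loops 1 and 2 of BSG and at -0.19 and 0.15 in GSG. Tnnt2 was above 0 on each of them, at 0.21 and 0.40 in BSG and at 0.27 and 0.67 in GSG. Around a closed loop the 9 log ratios of error-free data sum to 0. For Acta1 the sums were 4.34 and 2.48 in loops 1 and 2 of BSG and 3.90 and 2.39 in those of GSG. For Tnnt2 they were 1.07 and 3.06 in BSG and 2.74 and 3.24 in GSG. Every loop thus ended above its start for both genes.

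**Figure D2:**
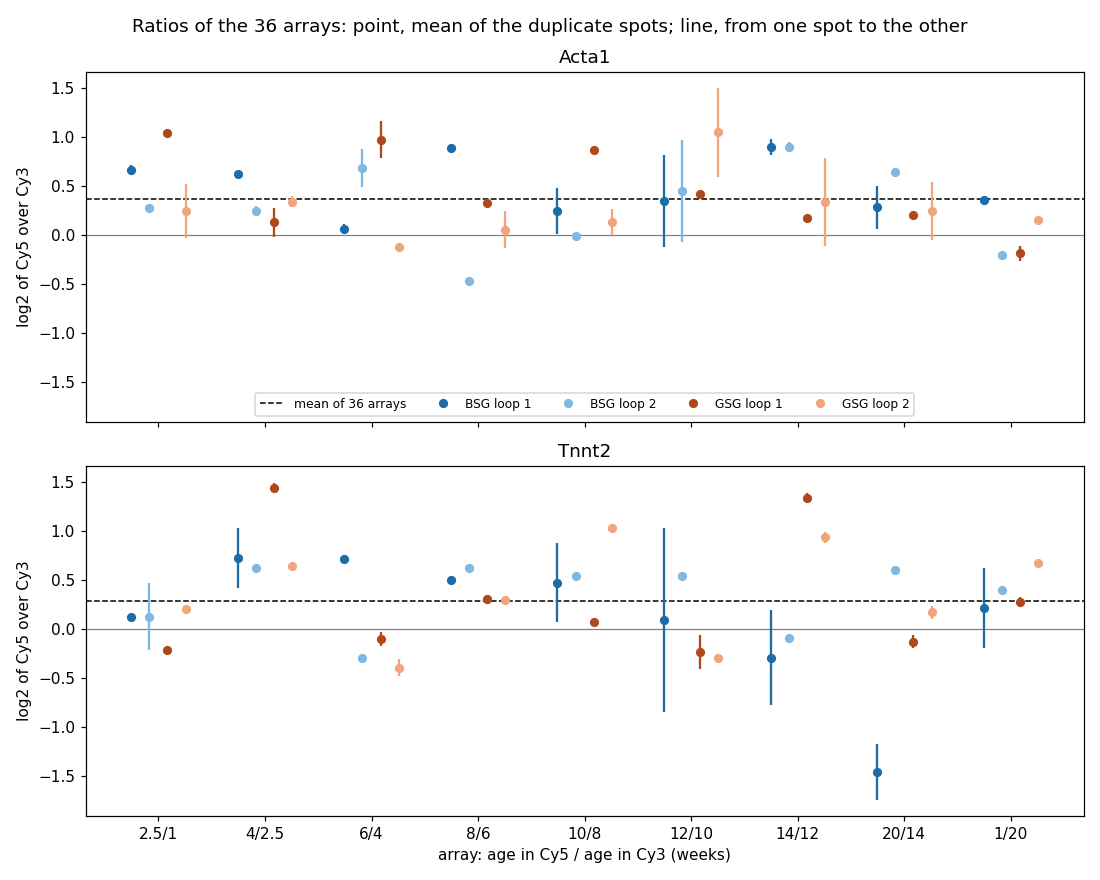
Log2 of Cy5 over Cy3 (vertical axis) on each of the 9 arrays of a loop (horizontal axis, age in Cy5 over age in Cy3 in weeks), coloured by strain and loop. Points are means of the duplicate spots, vertical lines run from one spot to the other, and the dashed line is the mean of 36 arrays, 0.36 for Acta1 and 0.28 for Tnnt2.

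Written as 1 constant per array, this excess was 0.36 ± 0.06 for Acta1 (limma, adjusted p = 1.23e-04) and 0.28 ± 0.07 for Tnnt2 (limma, adjusted p = 0.00345). Such constants were common, with 19.5% of the oligonucleotides called above 0, but 1.27% had a larger one than Acta1 and 4.75% a larger one than Tnnt2. A constant cancels out of every age ratio in a closed loop. The values above that come from whole loops are therefore the same with and without it. Only the residual SD changed, to 0.400 for Acta1 and 0.458 for Tnnt2. With it in the fit, Tnnt2 in BSG at 12 weeks had a 95% interval of 0.13 to 1.88 (limma, adjusted p = 0.771), and the F test of Tnnt2 in GSG gave an adjusted p of 0.291. The older mouse was in Cy5 on every array but the one that closed each loop, and no array was repeated with the dyes swapped. Dye and order of age therefore cannot be told apart on single arrays.

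Other contractile genes also had constants above 0. The calls given for each list count constants in either direction. All 7 measured genes of the adult fast contractile list were above 0, with a median of 0.28, and 5 of them were called. Of 12 other sarcomere and thin filament genes 11 were above 0, with a median of 0.30, and 10 were called. In the slow and cardiac list 7 of 8 were above 0, with a median of 0.19, and 3 were called. Of 11 heart muscle markers 2 were above 0 and 1 was called. Over all 8129 oligonucleotides 4237 were above 0 and 2936 were called in either direction, with a median of 0.01.

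Acta1 and Tnnt2 did not run in parallel over the 36 arrays (Pearson's r = -0.33, Spearman's rho = -0.43, as a description of arrays that share mice). The 3 genes whose log ratios were most like those of Acta1, among 6750 oligonucleotides with 1 gene symbol, were Tpm1 (r = 0.86), Piwil2 (r = 0.82) and Gapdh (r = 0.72). Tpm1 encodes a tropomyosin of the thin filament and Gapdh a glycolytic enzyme. The Gapdh value is a mean of 80 spot pairs. Piwil2 encodes a protein of the piRNA pathway known from the germ line. These genes shared the constant excess of Acta1, 0.39, 0.34 and 0.31 per array. They were picked on the same 36 arrays, so likeness in the constant or in a loop is no separate observation. In loop 1 of GSG, where all later mice were above the 1-week mouse for Acta1, the same was true of Tpm1 at 0.50 to 1.30, of Piwil2 at 0.28 to 0.93 and of Gapdh at 0.24 to 0.74. In loop 2 of GSG, Tpm1 ran from -0.49 to 0.32, as Acta1 did from -0.70 to 0.14, whereas Gapdh was between -0.04 and 0.60 and Piwil2 between -0.03 and 0.71. What part the loop has in these values was not tested.

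For Tnnt2, the 3 most similar genes were Tnnt1 (r = 0.73), the troponin T of slow fibres, Atp2a2 (r = 0.72), the calcium pump of slow and cardiac muscle, and Bex1 (r = 0.69), known from regenerating muscle and neurons. They were also high in loop 1 of BSG. At 10 weeks in that loop Tnnt1 was at 1.05, Atp2a2 at 2.06 and Bex1 at 0.75, where Tnnt2 was at 1.93. At 12 weeks Tnnt1 was at 0.05, Atp2a2 at 0.90 and Bex1 at 0.77, whereas Tnnt2 was at 1.90. In loop 2 of BSG at 10 weeks they were at -0.24, -0.20 and 0.06. Tnnt1 was at -0.49 at 14 weeks and at -2.10 at 20 weeks in loop 1, where Tnnt2 was at 1.49 and -0.09.

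**Figure D3:**
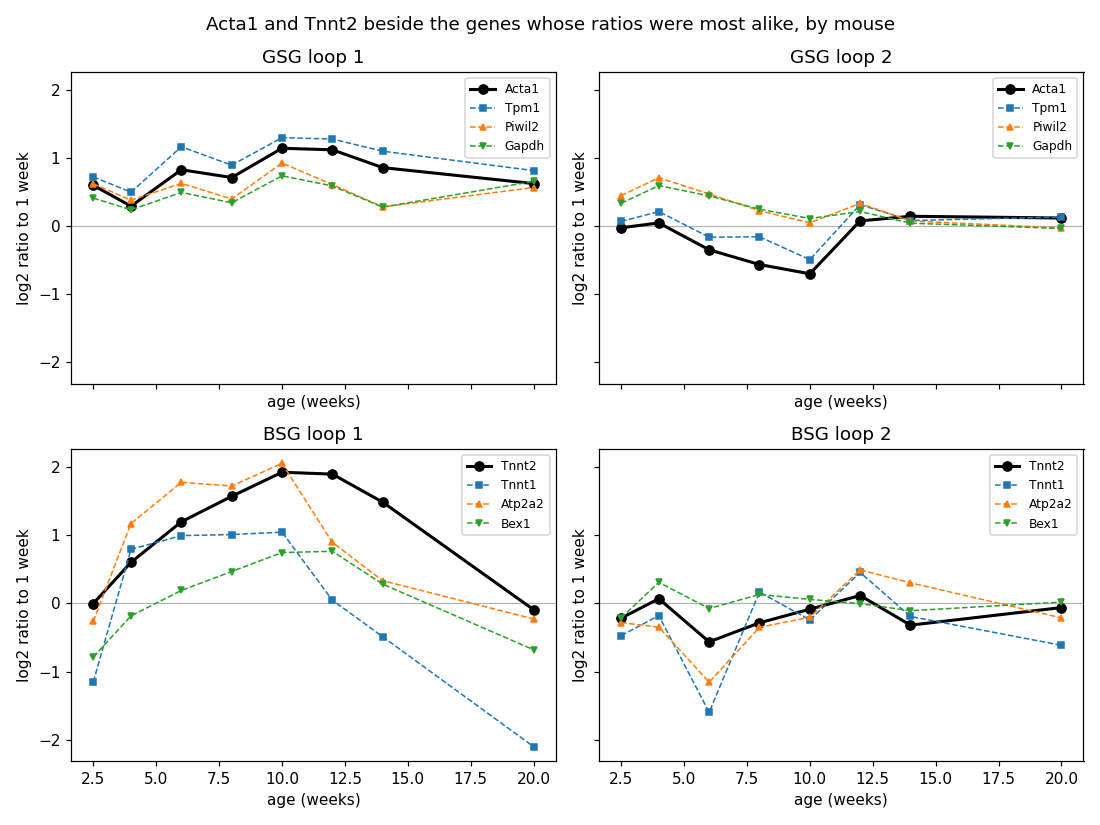
Log2 ratio to 1 week (vertical axis) against age in weeks (horizontal axis), with 1 mouse per age and loop, for Acta1 in GSG with Tpm1, Piwil2 and Gapdh and for Tnnt2 in BSG with Tnnt1, Atp2a2 and Bex1. In loop 1 of BSG at 10 weeks Tnnt2 and Atp2a2 are near 2, and in loop 2 all 4 genes are below 0.1 at that age.

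Other muscle genes also differed between the BSG loops, but not at all ages in the direction of Tnnt2. The median of the 8 measured slow and cardiac contractile genes at 10 weeks was 1.02 in loop 1 and -0.08 in loop 2. For the 12 other sarcomere and thin filament genes it was 1.34 and -0.15. At 12 weeks the slow and cardiac median was -0.35 in loop 1 and 0.42 in loop 2, and at 14 weeks -0.87 and -0.09, with loop 1 the lower, whereas Tnnt2 was higher in loop 1 at both ages. The median of the other sarcomere genes was 0.62 and 0.05 at 12 weeks and 0.19 and 0.11 at 14 weeks. The median of the 11 heart muscle markers was at -0.31 in loop 1 and 0.06 in loop 2 at 10 weeks, lower in the loop in which Tnnt2 was higher. Over all oligonucleotides the median of any mouse lay between -0.08 and 0.03. The part of these genes in the Tnnt2 values was not tested.

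The other isoforms of the sarcomere were compared at 20 weeks. Of all 8129 oligonucleotides, 35 rose and 69 fell in BSG, and 58 rose and 246 fell in GSG. Of 7 measured genes of the adult fast contractile list, 0 rose and 0 fell in either strain, with medians of 0.17 in BSG and 0.39 in GSG, against -0.02 and -0.01 over all oligonucleotides. Tnni2, the fast troponin I, was at 0.26 ± 0.28 and 0.51 ± 0.28 in BSG and GSG. Tpm1 was at 0.36 ± 0.42 and 0.47 ± 0.42, and Myoz1, a calcineurin-binding protein of the Z-disc of fast fibres, at -0.35 ± 0.41 and 0.59 ± 0.41. In GSG all 7 lay above 0, between 0.06 and 0.59, with Acta1 at 0.37 within that range and Tnnt2 at -0.14 below it.

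The slow and cardiac contractile genes had lower medians at 20 weeks, -1.01 in BSG and -1.001 in GSG, over 8 measured genes. In BSG 1 of the 8 fell and 0 rose, and in GSG 1 fell and 1 rose. With the constant per array in the fit, 2 fell in each strain, Actn2 and Myoz2 in both, and 1 rose in GSG. In that fit 87 of all 8129 oligonucleotides rose and 149 fell in BSG, and 98 rose and 355 fell in GSG. Without the constant, Actn2, the alpha-actinin of all muscle fibres and heart, fell by 1.52 ± 0.33 in BSG (limma, adjusted p = 0.0191) and was at -1.09 ± 0.33 in GSG (adjusted p = 0.0624). Myoz2, the Z-disc protein of slow fibres and heart, was at -1.49 ± 0.40 in BSG (limma, adjusted p = 0.0651) and fell by 1.57 ± 0.40 in GSG (adjusted p = 0.0234). The 1 gene that rose was Tpm3, a tropomyosin of slow fibres, by 0.95 ± 0.27 in GSG (limma, adjusted p = 0.0487), with 0.49 ± 0.27 in BSG. Tnnt2, which is likewise an isoform of heart, was at -0.08 and -0.14.

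**Figure D4:**
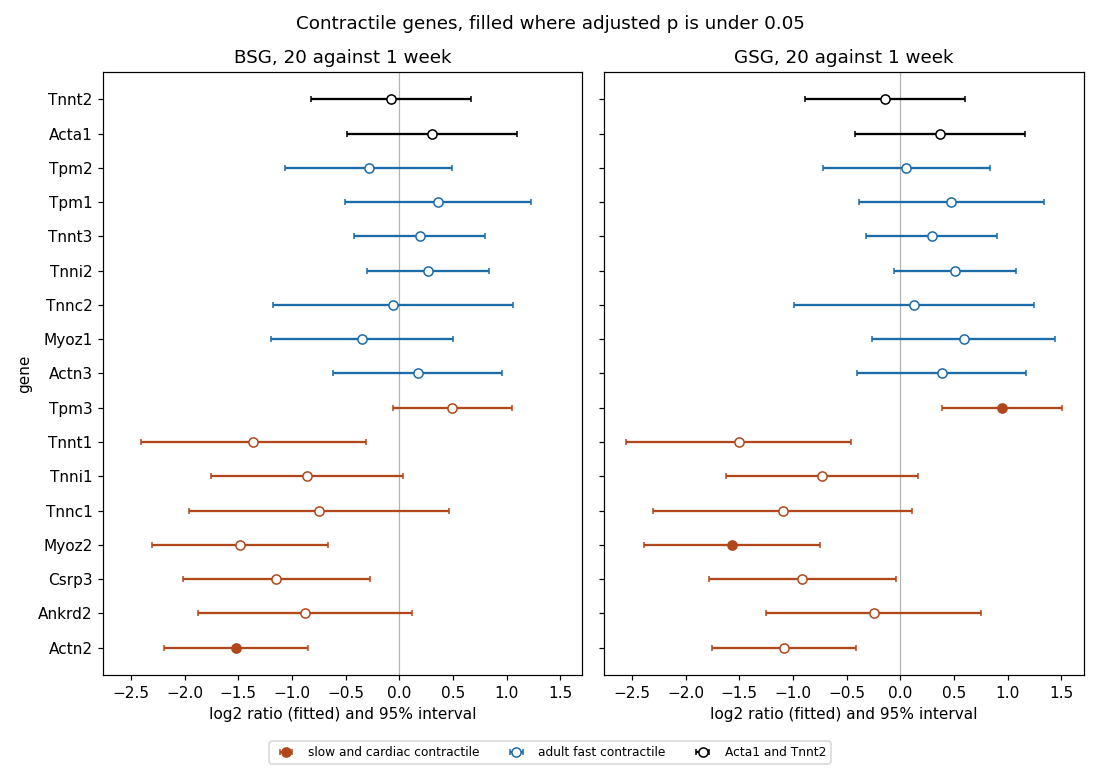
Fitted log2 ratio at 20 against 1 week with its 95% interval (horizontal axis) for Acta1 and Tnnt2, 7 adult fast and 8 slow and cardiac contractile genes (vertical axis) in BSG and GSG. Filled points have an adjusted p under 0.05: Actn2 in BSG, and Tpm3 and Myoz2 in GSG.

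Among 28 developmental and regeneration genes of muscle, 0 rose and 0 fell at 20 weeks in either strain, with medians of -0.12 in BSG and -0.07 in GSG. Over all oligonucleotides 1.28% were called in BSG and 3.74% in GSG, so these counts show nothing particular to the list. In each strain 11 of the 28 lay above 0, Ankrd1 among them at 1.25 ± 0.46 in BSG and 0.25 ± 0.46 in GSG. Cav3, the caveolin of muscle fibres, was at -1.20 ± 0.32 and -0.56 ± 0.32. Cdh15, the M-cadherin of myoblasts and satellite cells, was at -0.85 ± 0.28 and -0.80 ± 0.28. Myog, the myogenic factor of differentiating myoblasts, was at -0.31 ± 0.17 and -0.48 ± 0.17. With the constant per array in the fit, Cav3 passed the threshold in BSG (limma, adjusted p = 0.00187) and Myog in GSG (adjusted p = 0.0391). Of the 12 other sarcomere and thin filament genes 0 rose and 0 fell, with medians of 0.05 and -0.03. With the constant in the fit 1 rose in GSG, Tcap, the titin cap protein of the Z-disc (limma, adjusted p = 0.0242). Tcap was at 0.41 ± 0.39 in BSG and 0.96 ± 0.39 in GSG. Capza2, an actin capping subunit, was at 0.87 ± 0.41 and 0.10 ± 0.41. Cfl2, the muscle cofilin, lay on opposite sides of 0 in the strains, at 0.75 ± 0.41 and -0.62 ± 0.41.

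Markers of other cells of the muscle were called over the same weeks, beside 1.28% of all oligonucleotides in BSG and 3.74% in GSG. Of 16 macrophage markers 5 rose in GSG and 0 in BSG at 20 weeks, with medians of 0.76 and 0.70. Mpeg1 reached 2.09 ± 0.44, Lgals3 1.98 ± 0.51 and Cd68 1.45 ± 0.37 in GSG. Of 13 fibroblast and matrix markers 3 fell in GSG (Postn, Col1a1 and Sparc) and 1 in BSG (Col1a1, -1.66 ± 0.37). Their medians were -0.39 in GSG and -0.47 in BSG, with 2 and 3 of the 13 above 0. Col3a1 lay on that other side, at 1.02 ± 0.40 in GSG and 0.58 ± 0.40 in BSG, and was not called. Of 10 imprinted growth genes 7 fell in BSG and 8 in GSG, Dlk1, Meg3 and Plagl1 among them in both strains. In the smooth muscle list 1 of 6 fell in BSG, Smtn. In the proliferation list 1 of 19 fell in each strain, Mcm2 in BSG and Cdk1 in GSG, and in the blood list 1 of 7 fell in GSG, Alas2. Of 11 heart muscle markers 0 rose and 0 fell in either strain, with medians of 0.01 and 0.02. Among the heart muscle markers, Nkx2-5 was at 0.01 ± 0.17 in BSG and 0.38 ± 0.17 in GSG. Tbx5 was at 0.02 ± 0.16 and 0.34 ± 0.16, and Hand2 at -0.53 ± 0.21 and 0.02 ± 0.21. Acta1 and Tnnt2 are fibre genes, and the share of fibres in the RNA was not measured.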

How the data were processed

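Quadriceps RNA of 36 mice was linearly amplified, labelled as aminoallyl cRNA and hybridised by the authors on 36 arrays on which each 65-mer of a mouse library was spotted in duplicate. GenePix scans were normalised by the authors for position on the slide, for dye and between arrays (function all.norm, R package smida), and the ratios of the channels were deposited on a log scale. Their base and direction are not given in the sources used here. The deposited values were read as log2 of Cy5 over Cy3 after the authors' normalisation, because the lowest value, -12.0, would be a 166452-fold ratio as a natural log, above the 65536 levels of a 16-bit scanner. No intensities were used, so the depth behind a ratio is unknown and the number of arrays limits the precision.

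Duplicate spots of each of 8129 oligonucleotides were averaged, with 0 values missing and no filter. The 80 spot pairs of the Gapdh control were averaged into 1 of these oligonucleotides. Of these, 6752 had 1 gene symbol in the platform annotation, 7 several and 1370 none. Acta1 and Tnnt2 have 1 oligonucleotide each. The actins are near-identical paralogs, and whether the Acta1 oligonucleotide also binds another actin was not tested.

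All 36 arrays were fitted together in limma (version 3.58.1, R version 4.3.3; lmFit and eBayes) with the 8 later ages against 1 week in each strain, and p-values were adjusted by Benjamini-Hochberg over all oligonucleotides at 0.05. Replicates are mice, 2 per age and strain, but the fit takes the arrays as independent. Single-mouse values come from each loop solved alone. The temporal (degree 2) and non-temporal Hotelling tests were written from the study's equations. The fits were also run on simulated data with independent errors on each array, which cannot test whether the arrays are independent. A listed gene with several oligonucleotides was represented by that of the highest mean absolute log ratio. Named genes are the measured members, up to 3 genes per other list with the smallest p at 20 against 1 week in either strain, and the 3 genes most correlated with each member. Col3a1 and Ankrd1 were added as the highest of their lists in GSG and in BSG. The lists are those of the text: adult fast contractile, slow and cardiac contractile, other sarcomere, developmental, heart, smooth muscle, macrophage, fibroblast, blood, imprinted and proliferation genes. Members and lists were chosen with earlier results of these data known. Alternatives were each loop left out, the loop as a random block, a constant dye term, median-centred or scaled arrays, duplicateCorrelation, 1 value per animal, strains fitted alone, no moderation and, for the temporal test, degree 4, age in weeks and a pooled spread. Chosen after seeing the data were single spots, leaving out 9 arrays with a duplicate-spot r under 0.3, the test of the constant, and the strain difference at each age. matplotlib 3.10.9 under Python 3.11.15 drew the figures.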

Additional observations from a re-analysis of the deposited data

Results flagged for a closer look

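At 12 weeks, every mouse of one strain lay on the other side of the 1-week level from every mouse of the other strain, for both genes. For Tnnt2 the mice were at 1.90 and 0.12 in BSG and at -0.57 and -0.69 in GSG, a difference of 1.64 ± 0.77 (log2, BSG minus GSG, limma, adjusted p = 1.00). Without loop 1 of BSG it was 0.75 ± 0.95 and without loop 2 of BSG 2.53 ± 0.84 (limma, adjusted p = 1.00 and 0.580). For Acta1 the mice were at -0.09 and -0.50 in BSG and at 1.12 and 0.08 in GSG, a difference of -0.89 ± 0.82 (limma, adjusted p = 1.00). Neither difference passed the threshold, and 8 ages were looked at for each gene.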

How the results depend on the processing

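The number of members called was 0 under every alternative run, in 229 recomputed counts, and the smallest adjusted p of any of them was 0.0638. That was Tnnt2 in the mean of the later ages in BSG, with 1 value per animal, a fit in which the values of a loop share their 1-week mouse and 2437 oligonucleotides were called. With the loop as a random replicate block, the adjusted p at 20 weeks was 0.794 for Acta1 in BSG and 0.623 in GSG, and 0.964 and 0.905 for Tnnt2. The correlation within a loop was 0.107.

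Of 176 recomputed values of the members, 154 kept their sign and 22, none of them called, did not; the cause was not tested. With 1 loop left out, the Acta1 mean of the later ages ran from -0.0790 to 0.138 in BSG and from -0.16 to 0.77 in GSG, and that of Tnnt2 from -0.17 to 1.08 in BSG and from -0.314 to 0.0507 in GSG. At 20 weeks Tnnt2 in GSG ran from -0.309 to 0.0313. The strain difference (BSG minus GSG) at 20 weeks ran from -0.32 to 0.19 for Acta1 and from -0.11 to 0.23 for Tnnt2, and that of the later mean from -0.74 to 0.19 and from -0.0358 to 1.21. A strain left with 1 loop is assumed to vary like the other. With arrays scaled to the same spread, the Acta1 later mean in BSG was -0.0184, its strain difference at 20 weeks 0.00555, Tnnt2 at 20 weeks in GSG 0.00384 and its strain difference -0.0150. From the second spots alone, the Acta1 later mean in BSG was -0.0528, and the strain difference at 20 weeks was 0.00224 for Acta1 and -0.00963 for Tnnt2. From the first spots alone the Acta1 strain difference of the later mean was 0.0255. With the 9 arrays of discordant spots left out, the Acta1 later mean was -0.00978 in BSG and -0.905 in GSG, and its strain difference 0.11 at 20 weeks and 0.90 for the later mean. In that fit loop 1 of BSG and both loops of GSG were open, so the constant per array did not cancel. With 2 mice per age, the standard errors of the age ratios, 0.36 to 0.61, limit what can be seen. They come from a fit that takes the arrays as independent, and they grow with the distance from 1 week around the loop. For Acta1 in BSG they were 0.39 at 20 weeks and 0.61 at 10 weeks.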
